A study of Mus musculus with 27 samples.

Results

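The H2 genes are the mouse major histocompatibility complex, a family of cell surface proteins that display peptides to T cells. They were taken here as every row of the deposited long RNA sense table whose gene name begins with H2- and whose identifier is a mouse Ensembl gene, which gave 45 of 55358 Ensembl genes, 11 of them annotated as pseudogenes in that table. All 45 lay on chromosome 17 of the GRCm39 assembly, between positions 34194050 and 37794472, a span of 3.60 Mb. By name, 2 are classical class I genes (H2-K1 and H2-D1), 30 are non-classical class I genes of the Q, T and M groups or class I relatives, 12 belong to class II, and 1, H2-Ke6, is an enzyme gene that lies in the same region. Within these 45 genes, the chain gene H2-Ab1 was several times higher in the Strep1 line than in Strep2 and WT, in both sorted cell populations, and H2-D1 and several Q genes were higher with it, while the partner chain H2-Aa, the DM genes and H2-K1 showed much smaller differences or none that passed the test.

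The study solved the structure of MIWI, the piRNA-binding Argonaute protein of the gene Piwil1, and compared transcripts of sorted testis cells from knock-in mice that carry a Strep II tag inside the N-terminal stretch of MIWI with those of untagged mice. Long RNA was measured in 6 groups of 3 libraries: 1n Strep1, 1n Strep2, 1n WT, 4n Strep1, 4n Strep2 and 4n WT. The 1n cells are haploid spermatids and the 4n cells are spermatocytes, sorted by DNA content from testis cell suspensions, and WT carries no tag. Strep1 is labelled RP68 and Strep2 RP85, whereas the growth protocol names its lines RP85 and RP86, so values follow the genotype label and the tag position of each line is not assigned here. The strain background and age of the sorted mice are not given in the sources used here, and each tagged genotype is 1 knock-in line. The labels do not say whether the 3 libraries of a group are from different mice. Each p-value therefore rests on library-to-library spread, part or all of which may be technical. By their library names, the 1n WT and 1n Strep2 libraries belong to one numbered series and the other 12 libraries to another. The 1n Strep1 comparisons therefore coincide with a change of series, and genotype and series cannot be told apart there, whereas every 4n comparison lies within 1 series.

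Class I molecules consist of a heavy chain, encoded by H2-K1, H2-D1 and the non-classical genes, paired with beta-2-microglobulin, and show peptides from inside the cell to CD8 T cells. Class II molecules are pairs of an alpha and a beta chain (H2-Aa with H2-Ab1, H2-Ea with H2-Eb1), are made mainly by antigen-presenting cells and show peptides to CD4 T cells; the DM proteins exchange the peptides they carry. Germ cells of the testis are known for low levels of both classes, and the H2 genes are among the most variable genes between inbred mouse strains, which carry them as distinct haplotypes.

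The sequences just upstream of the annotated starts are shown for the class II chains and for 3 class I genes, because H2-Ab1, H2-D1 and H2-Q4 differed between the lines while H2-Aa, the neighbour of H2-Ab1, and H2-K1, the other classical class I gene, did not pass the test. Each is the 250 bases before the start of the GENCODE M39 canonical transcript, read 5′ to 3′ on the gene's strand from the reference genome GRCm39, which is based on C57BL/6J and is not the sequence of these lines. The positions are chr17:34481933-34482182 on the plus strand for H2-Ab1, chr17:34506798-34507047 on the minus strand for H2-Aa, chr17:34524563-34524812 on the plus strand for H2-Eb1, chr17:35481441-35481690 on the plus strand for H2-D1, chr17:35598336-35598585 on the plus strand for H2-Q4 and chr17:34219322-34219571 on the minus strand for H2-K1. Capitals mark CCAAT, the core of the Y box bound by NF-Y, and TGACG, the core of the X2 box, on either strand (ATTGG and CGTCA on the printed one).
H2-Ab1: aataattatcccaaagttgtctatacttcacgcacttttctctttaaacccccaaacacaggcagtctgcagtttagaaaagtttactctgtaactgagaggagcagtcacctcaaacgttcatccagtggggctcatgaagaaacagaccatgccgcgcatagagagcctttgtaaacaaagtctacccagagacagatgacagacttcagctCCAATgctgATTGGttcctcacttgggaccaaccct
H2-Aa: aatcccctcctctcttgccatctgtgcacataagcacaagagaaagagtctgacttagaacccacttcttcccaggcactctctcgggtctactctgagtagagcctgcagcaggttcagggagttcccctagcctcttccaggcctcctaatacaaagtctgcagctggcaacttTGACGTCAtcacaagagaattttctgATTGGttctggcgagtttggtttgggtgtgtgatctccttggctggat
H2-Eb1: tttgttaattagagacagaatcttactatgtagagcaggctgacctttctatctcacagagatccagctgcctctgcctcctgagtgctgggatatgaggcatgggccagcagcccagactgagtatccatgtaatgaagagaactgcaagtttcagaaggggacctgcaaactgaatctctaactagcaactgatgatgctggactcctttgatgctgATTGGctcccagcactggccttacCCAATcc
H2-D1: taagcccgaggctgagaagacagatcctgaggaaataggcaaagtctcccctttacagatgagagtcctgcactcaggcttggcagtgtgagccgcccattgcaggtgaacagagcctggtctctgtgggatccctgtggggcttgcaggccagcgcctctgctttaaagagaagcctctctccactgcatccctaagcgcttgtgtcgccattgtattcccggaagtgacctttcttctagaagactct
H2-Q4: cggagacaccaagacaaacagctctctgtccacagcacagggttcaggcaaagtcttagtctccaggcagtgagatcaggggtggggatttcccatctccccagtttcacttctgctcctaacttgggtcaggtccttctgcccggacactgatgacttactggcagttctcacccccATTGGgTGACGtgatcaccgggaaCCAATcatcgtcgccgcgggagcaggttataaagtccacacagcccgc
H2-K1: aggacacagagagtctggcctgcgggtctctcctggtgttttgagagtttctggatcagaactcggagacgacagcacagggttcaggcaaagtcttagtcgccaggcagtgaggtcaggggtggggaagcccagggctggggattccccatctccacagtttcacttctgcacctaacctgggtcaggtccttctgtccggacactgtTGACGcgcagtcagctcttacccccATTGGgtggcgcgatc
The H2-Ab1 and H2-Eb1 windows held 2 CCAAT matches each, and the H2-Aa window held 1 together with 2 overlapping TGACG matches that form a palindrome. H2-Q4 had 2 CCAAT and 1 TGACG match, H2-K1 had 1 of each, and the H2-D1 window held none of them. A strict form of the core of the interferon-stimulated response element, GAAA followed after any 2 bases by GAAA, was searched on both strands as well. It has no exact match in these 6 windows, and variants of it were not searched. Over all 45 H2 genes, 32 windows held CCAAT, 12 held TGACG and 4 held this strict form of the interferon element core. Among the 21770 protein-coding genes of the annotation, 36.5%, 18% and 3.32% of windows of the same length held these motifs in that order. A match is a run of letters and not a bound site. Bases outside the window of the annotated start were not searched, so the H2-D1 window does not show that the gene lacks these motifs.

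Levels are the deposited RPM, reads scaled to the size of the library, not divided by gene length, so they compare libraries within a gene and not genes with each other. Differences are log2 fold changes of log2(RPM + 0.1) with the limma standard error, tested with limma over all genes that reached 0.3 RPM in at least 3 libraries, and "called" means a Benjamini-Hochberg adjusted p under 0.05 over all of these. Depth inferred from the value of 1 read was 33.0M to 63.2M reads per library, so 1 read was worth 0.0158 to 0.0303 RPM. The sorted populations matched their labels: all 8 spermatid markers were called higher and all 8 spermatocyte markers lower in 1n than in 4n cells of every genotype. In bulk RNA, fewer cells of a type and less RNA per cell cannot be told apart.

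Of the 45 H2 genes, 13 passed the filter in 1n cells, 14 in 4n cells and 19 in a fit of all 18 libraries, and 8 passed in both populations. The other 26 passed in none. In 1n cells, 3 of the 13 (H2-DMb2, H2-D1 and H2-Q4) were kept only because of the Strep1 libraries, and in 4n cells 6 of the 14 (H2-K2, H2-Q2, H2-Q4, H2-Q5, H2-Q6 and H2-Q10). The same genes as in 4n cells were kept only through Strep1 libraries in the fit of all 18. Counts and medians over the genes that passed are therefore partly fixed by the filter and are given as a description.

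In 1n Strep1 against 1n WT, 3 of the 13 H2 genes tested were called, all higher (H2-Ab1, H2-Q4 and H2-D1), where 1.34% of all 20988 genes were called in either direction and 0.643% higher. In 4n Strep1 against 4n WT, 7 of 14 were called, all higher (H2-Ab1, H2-Q10, H2-D1, H2-Q2, H2-Q4, H2-K2 and H2-Ke6), where 0.932% of 18463 genes were called and 0.552% higher. Against Strep2 the calls numbered 5 of 13 in 1n cells (H2-Ab1, H2-Q4, H2-D1, H2-Eb1 and H2-DMa; background 1.37%, and 0.586% higher) and 6 of 14 in 4n cells (the 4n genes above without H2-Ke6; background 0.991%, and 0.569% higher), again all higher. Among these calls, H2-D1 and H2-Q4 in 1n cells had passed the filter only through the Strep1 libraries. The same holds for H2-K2, H2-Q2, H2-Q4 and H2-Q10 in 4n cells. The counts therefore cannot be weighed against the background shares. The median log2 fold change of the H2 genes tested was 0.38 in 1n and 0.97 in 4n cells for Strep1 against WT, beside 0.01 and -0.02 over all genes; the H2 medians are raised by the genes that the filter kept for their Strep1 values. Without any 1 of the 3 4n Strep1 libraries, 2 H2 genes were called in each 4n Strep1 comparison, because genes then missed the filter; with the genes tested held fixed, a choice made after seeing the values, 5 to 6 were called against WT and 6 to 7 against Strep2. These comparisons share the Strep1 libraries, and those of Strep1 and Strep2 with WT share the WT libraries.

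**Figure D1:**
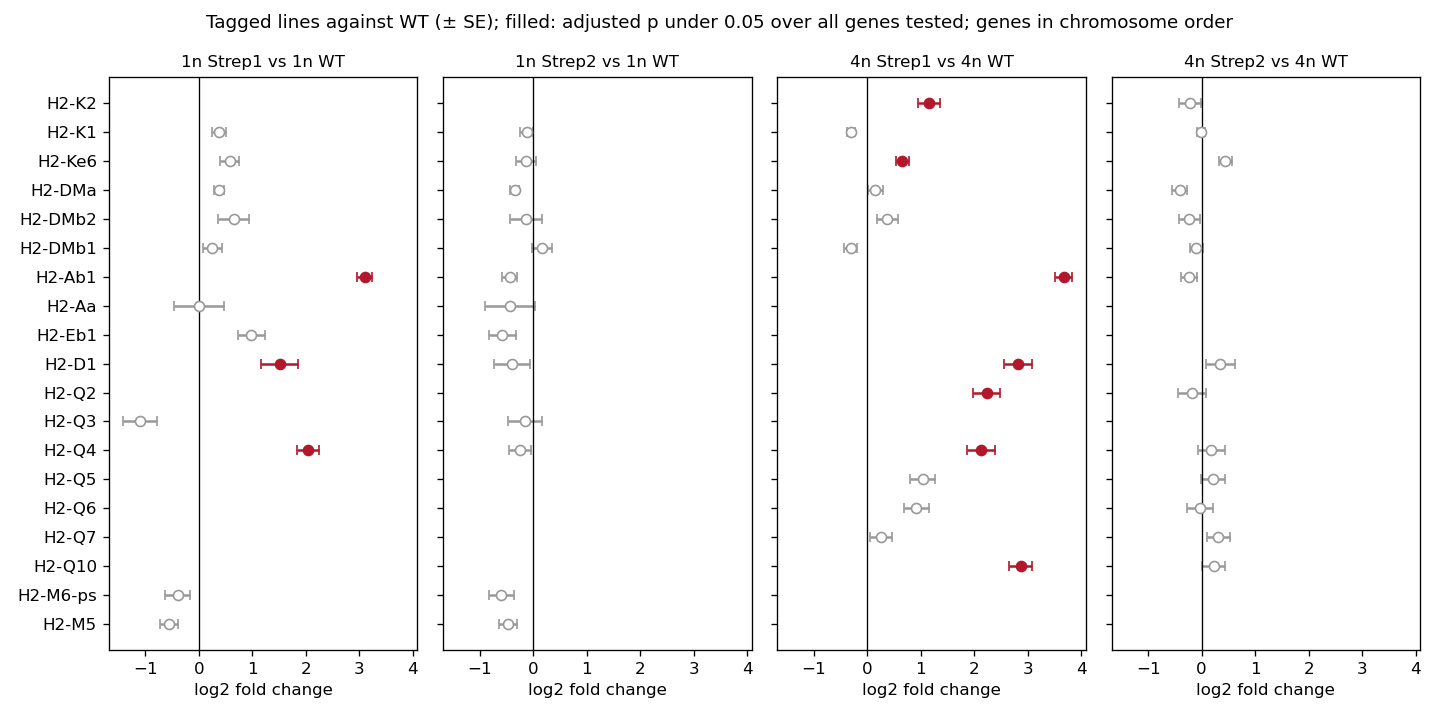
Log2 fold change of each tested H2 gene (x axis, ± SE) for both tagged lines against WT in 1n and 4n cells, with genes in chromosome order down the page and filled points for adjusted p under 0.05. Filled points stand only in the Strep1 panels, 3 in 1n and 7 in 4n, and all lie right of 0.

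H2-Ab1, the beta chain of the class II molecule I-A (chr17:34476663-34488393), had the largest log2 fold change of any H2 gene in each Strep1 comparison on the log2(RPM + 0.1) scale. With a pseudocount of 0.01, H2-Q10 at 5.20 and H2-Q2 at 4.36 exceeded its 3.74 in 4n Strep1 against WT. It had 28.8, 29.9 and 31.5 RPM in 1n Strep1 libraries, 2.76, 2.39 and 2.37 RPM in 1n Strep2 and 3.01, 4.26 and 2.85 RPM in 1n WT. Its 4n values were 21.1, 22.0 and 25.4 RPM in Strep1, 1.50, 1.75 and 1.18 RPM in Strep2 and 1.56, 1.29 and 2.00 RPM in WT. All 6 Strep1 libraries lay above all 12 others, with ratios of mean RPM to WT of 8.91 in 1n and 14.1 in 4n cells. The limma log2 fold change against WT was 3.10 ± 0.14 (SE, adjusted p = 4.70e-09) in 1n and 3.67 ± 0.16 (SE, adjusted p = 3.19e-07) in 4n cells, and against Strep2 3.54 ± 0.14 (SE, adjusted p = 7.48e-10) in 1n and 3.91 ± 0.16 (SE, adjusted p = 1.65e-07) in 4n cells. The H2-Ab1 transcripts share no stretch of 100 bases with any other annotated gene.

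H2-Aa, the alpha chain that pairs with H2-Ab1, did not follow it. It had 0.537, 0.120 and 1.09 RPM in 1n Strep1, 0.418, 0.208 and 0.330 RPM in 1n Strep2 and 0.484, 0.639 and 0.260 RPM in 1n WT, and the 3 groups overlapped. The limma log2 fold change of 1n Strep1 against WT was 0.01 ± 0.47 (SE, adjusted p = 0.998). In 4n cells no library exceeded 0.0441 RPM, and H2-Aa was not tested there.

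H2-Eb1, the beta chain of the class II molecule I-E, had 1.21, 0.949 and 1.55 RPM in 1n Strep1, 0.330, 0.398 and 0.318 RPM in 1n Strep2 and 0.646, 0.756 and 0.329 RPM in 1n WT. All 1n Strep1 libraries lay above the others. The limma log2 fold change was 1.56 ± 0.26 (SE, adjusted p = 0.00371) against Strep2, which was called, and 0.98 ± 0.26 (SE, adjusted p = 0.0885) against WT, which was not. In 4n cells H2-Eb1 had 0.281, 0.317 and 0.314 RPM in Strep1, 0, 0.113 and 0.114 RPM in Strep2 and 0, 0.0205 and 0 RPM in WT, too few libraries over the filter for a test. H2-Ea, the alpha chain partner of H2-Eb1, annotated as a pseudogene in the deposited table, reached 0.303 RPM in 1 of the 1n Strep1 libraries and had 0.0402 RPM or less in the other 17.

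The DM genes encode the class II peptide exchange factor and differed little between lines. H2-DMa, the DM alpha chain, had 23.7, 24.2 and 26.4 RPM in 1n Strep1, 15.0, 14.7 and 15.4 RPM in 1n Strep2 and 18.2, 20.1 and 17.3 RPM in 1n WT. The 3 groups did not overlap, and the limma log2 fold change was 0.72 ± 0.09 (SE, adjusted p = 0.000223) against Strep2, which was called, and 0.38 ± 0.09 (SE, adjusted p = 0.0564) against WT, which was not. Among 4n libraries it had 6.43, 5.07 and 5.19 RPM in Strep1, 3.20, 4.54 and 3.86 RPM in Strep2 and 5.36, 4.26 and 4.49 RPM in WT, with Strep1 and WT overlapping. H2-DMb1 and H2-DMb2 are near copies that encode the DM beta chain, and 11.3% of the 100-base stretches of H2-DMb1 also occur in another H2 gene. H2-DMb1 had 1.22, 1.35 and 1.47 RPM in 1n Strep1, 1.14, 1.23 and 1.45 RPM in 1n Strep2 and 1.26, 0.850 and 1.19 RPM in 1n WT. In 4n cells it had 2.58, 2.89 and 3.54 RPM in Strep1, 3.18, 3.95 and 3.60 RPM in Strep2 and 3.40, 3.37 and 3.74 RPM in WT, so the lines overlapped in both populations. H2-DMb2 had 0.365, 0.358 and 0.652 RPM in 1n Strep1, 0.220, 0.158 and 0.277 RPM in 1n Strep2 and 0.372, 0.153 and 0.227 RPM in 1n WT. Its 4n values were 1.27, 1.20 and 2.05 RPM in Strep1, 0.874, 1.03 and 0.960 RPM in Strep2 and 0.989, 1.18 and 0.958 RPM in WT, above the others in every Strep1 library, but it was called in no comparison between lines. The 2 genes of the DO modulator, H2-Oa and H2-Ob, were at or near 0 throughout, with 0.0227 RPM as the highest value.

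**Figure D2:**
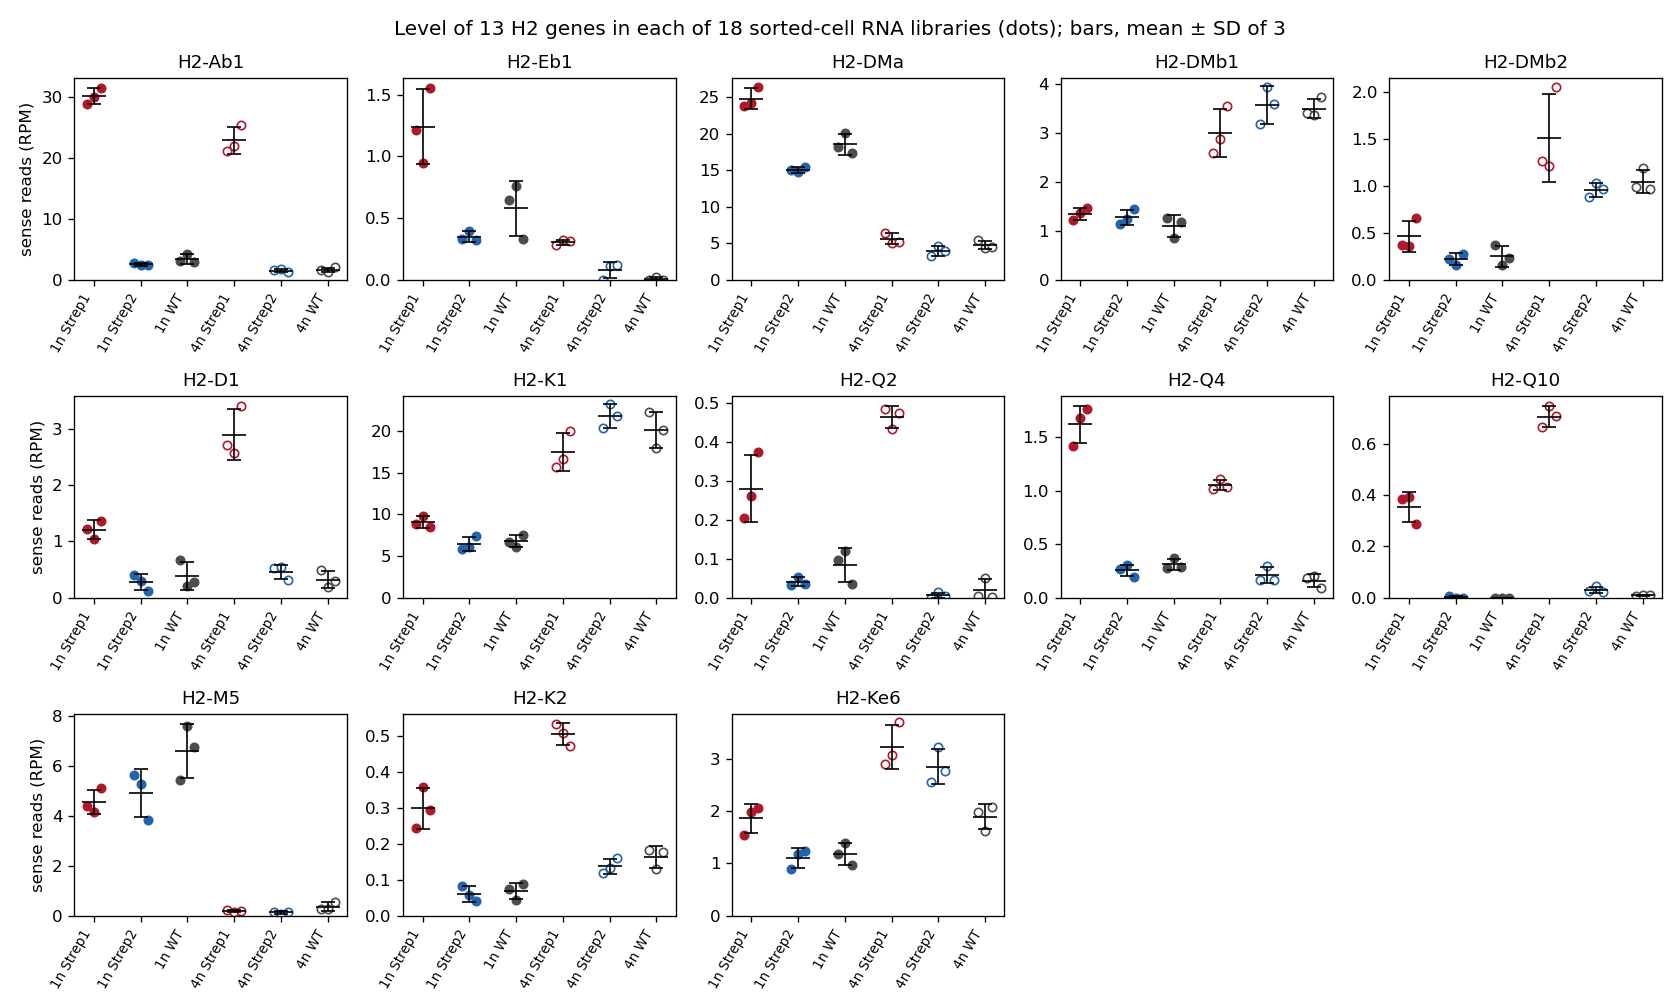
Sense RPM (y axis, linear from 0, a scale for each gene) of 13 H2 genes in the 18 libraries, with dots for libraries and bars for mean ± SD of 3. H2-Ab1, H2-D1, H2-Q2, H2-Q4, H2-Q10 and H2-K2 are high in the 6 Strep1 libraries (red), whereas H2-K1, H2-DMb1 and H2-M5 separate mainly by population.

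The classical class I genes differed from each other. H2-D1 (chr17:35481691-35486475) had 1.23, 1.04 and 1.36 RPM in 1n Strep1, 0.397, 0.30 and 0.114 RPM in 1n Strep2 and 0.664, 0.214 and 0.274 RPM in 1n WT. Its 4n values were 2.71, 2.57 and 3.42 RPM in Strep1, 0.521, 0.538 and 0.318 RPM in Strep2 and 0.486, 0.184 and 0.293 RPM in WT. Strep1 lay above both other groups in both populations without overlap, at 9.04 times the WT mean in 4n cells. The limma log2 fold change against WT was 2.82 ± 0.26 (SE, adjusted p = 0.000170) in 4n cells and 1.51 ± 0.34 (SE, adjusted p = 0.0444) in 1n cells. The 1n call against WT was lost without any 1 of 5 of the 6 libraries, all but WT replicate 1, with adjusted p between 0.0567 and 0.194 over the alternatives that ended it, whereas the 4n call held in each. With a pseudocount of 1 the 4n log2 fold change was 1.53.

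H2-K1, the other classical gene (chr17:34214987-34219321), had 8.78, 9.84 and 8.46 RPM in 1n Strep1, 5.83, 6.06 and 7.35 RPM in 1n Strep2 and 6.67, 6.09 and 7.49 RPM in 1n WT. Among 4n libraries it had 15.7, 16.7 and 20.0 RPM in Strep1, 20.4, 23.3 and 21.8 RPM in Strep2 and 22.3, 18.0 and 20.1 RPM in WT. The Strep1 values stood above WT in 1n and overlapped WT in 4n cells. Neither difference was called by limma: 0.37 ± 0.13 (SE, adjusted p = 0.198) in 1n and -0.30 ± 0.08 (SE, adjusted p = 0.149) in 4n cells. In H2-K1 and H2-D1, 2.03% and 2.44% of the 100-base stretches recur in another H2 gene.

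Among the Q genes, H2-Q4, H2-Q10 and H2-Q2 were called for Strep1 in 1 or both populations, and H2-Q3, H2-Q5, H2-Q6 and H2-Q7 were not. H2-Q4 (chr17:35598586-35604274) had 1.42, 1.68 and 1.76 RPM in 1n Strep1, 0.265, 0.303 and 0.193 RPM in 1n Strep2 and 0.278, 0.369 and 0.283 RPM in 1n WT. In 4n cells it had 1.02, 1.11 and 1.03 RPM in Strep1, 0.167, 0.298 and 0.164 RPM in Strep2 and 0.180, 0.203 and 0.0903 RPM in WT. Every Strep1 library exceeded every other one, and the limma log2 fold change against WT was 2.04 ± 0.21 (SE, adjusted p = 3.59e-05) in 1n and 2.12 ± 0.25 (SE, adjusted p = 0.00115) in 4n cells. The size depends on the pseudocount: the 4n log2 fold change was 0.81 with a pseudocount of 1 and 2.65 with 0.01, and the call held with both.

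H2-Q10 encodes a class I molecule known to be secreted by the liver. It had 0.383, 0.392 and 0.287 RPM in 1n Strep1 and 0.00549, 0 and 0 RPM in 1n Strep2, and was listed at 0 in all 3 1n WT libraries. Its 4n values were 0.664, 0.746 and 0.708 RPM in Strep1, 0.0244, 0.0433 and 0.0201 RPM in Strep2 and 0.00640, 0.0117 and 0.00823 RPM in WT. All values outside Strep1 were under 3 reads, and the limma log2 fold change of 4n Strep1 against WT, 2.86 ± 0.22 (SE, adjusted p = 3.57e-05), depends on the pseudocount: it was 0.75 with a pseudocount of 1 and 5.20 with 0.01.

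H2-Q2 was similar, with 0.204, 0.262 and 0.374 RPM in 1n Strep1, 0.0330, 0.0536 and 0.0341 RPM in 1n Strep2 and 0.0963, 0.119 and 0.0346 RPM in 1n WT. Among 4n libraries it had 0.485, 0.433 and 0.475 RPM in Strep1, 0, 0.0132 and 0.00388 RPM in Strep2 and 0.00375, 0.0513 and 0.00269 RPM in WT, with no overlap in either population. The 4n log2 fold change against WT was 2.23 ± 0.25 (SE, adjusted p = 0.000821) with limma, and 0.51 or 4.36 with pseudocounts of 1 or 0.01. H2-Q5 and H2-Q6 had 4n log2 fold changes of 1.03 ± 0.23 (SE, adjusted p = 0.0798) and 0.92 ± 0.24 (SE, adjusted p = 0.172) with limma, not called. H2-Q7, the gene of the Qa-2 antigen with H2-Q6, had 0.25 ± 0.21 (SE, adjusted p = 0.814). The Q genes are close copies: 17% of the 100-base stretches of H2-Q5, 9.75% of H2-Q7, 9.5% of H2-Q10, 8.35% of H2-Q6 and 7.34% of H2-Q4 recur in another H2 gene, so reads may have been divided among them and each single value is uncertain.

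H2-Q1, too low for a test and named after its values were seen, ran the same way, with 0.116, 0.144 and 0.195 RPM in 1n Strep1 and 0.192, 0.248 and 0.209 RPM in 4n Strep1, and at most 0.0289 RPM in the 12 other libraries. The pseudogene H2-Q3 went the other way in 1n cells, where its log2 fold change against WT was -1.10 ± 0.32 (SE, adjusted p = 0.136) with limma, not called. It had 0.121, 0.0201 and 0.152 RPM in 1n Strep1, 0.374, 0.170 and 0.284 RPM in 1n Strep2 and 0.269, 0.320 and 0.303 RPM in 1n WT.

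The pseudogene H2-K2 (chr17:34194050-34197764) opens the H2 region. It had 0.244, 0.358 and 0.294 RPM in 1n Strep1, 0.0824, 0.0568 and 0.0398 RPM in 1n Strep2 and 0.0740, 0.0436 and 0.0866 RPM in 1n WT, and was not tested in 1n cells. In 4n cells it had 0.534, 0.507 and 0.472 RPM in Strep1, 0.120, 0.131 and 0.160 RPM in Strep2 and 0.182, 0.128 and 0.178 RPM in WT. Strep1 stood above the rest in both populations, and the 4n limma log2 fold change was 1.37 ± 0.21 (SE, adjusted p = 0.00730) against Strep2 and 1.15 ± 0.21 (SE, adjusted p = 0.0259) against WT. The call against WT was lost without any 1 of the 3 WT libraries, without Strep1 replicate 1 or 2 (where the genes tested were held fixed) and with a replicate block, with adjusted p between 0.0668 and 0.153 over all alternatives that ended it. In the annotation, 86.7% of its 100-base stretches also belong to a non-coding gene of the same name, so the 2 cannot be separated. With a pseudocount of 1 the 4n log2 fold change against WT was 0.36.

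H2-Ke6, annotated as Hsd17b8, encodes a steroid and fatty acid dehydrogenase and has no part in peptide display. It had 1.54, 1.99 and 2.06 RPM in 1n Strep1, 0.890, 1.18 and 1.24 RPM in 1n Strep2 and 1.18, 1.40 and 0.979 RPM in 1n WT. Its 4n values were 2.90, 3.09 and 3.72 RPM in Strep1, 2.57, 3.23 and 2.78 RPM in Strep2 and 1.99, 1.63 and 2.09 RPM in WT. Strep1 and Strep2 overlapped in 4n cells and both lay above WT, with limma log2 fold changes of 0.65 ± 0.12 (SE, adjusted p = 0.0297) for Strep1, which was called, and 0.44 ± 0.12 (SE, adjusted p = 0.134) for Strep2, which was not. The Strep1 call was lost without any 1 of the 6 libraries, without scaling and with a replicate block, at adjusted p of 0.0528 to 0.186. The gene shares 61% of its 100-base stretches with the readthrough gene Gm20427.

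The M group and the remaining genes showed no call between lines. H2-M5 had 4.39, 4.17 and 5.11 RPM in 1n Strep1, 5.65, 5.30 and 3.83 RPM in 1n Strep2 and 5.46, 7.62 and 6.77 RPM in 1n WT. Strep1 lay below WT there without overlap, with a limma log2 fold change of -0.56 ± 0.17 (SE, adjusted p = 0.140). Among 4n libraries it had 0.242, 0.146 and 0.181 RPM in Strep1, 0.163, 0.0660 and 0.149 RPM in Strep2 and 0.254, 0.277 and 0.554 RPM in WT. The T genes, which include H2-T23 for the Qa-1 molecule seen by natural killer cell receptors, stayed under the filter. H2-Bl, annotated as H2-T13 and named after its values were seen, had 0.164, 0.148 and 0.107 RPM in 4n Strep1, was listed at 0 in all 3 4n Strep2 libraries and had at most 0.00132 RPM in 4n WT. The authors' own quantification, given below, listed signal for it in every 4n library, with Strep1 and WT overlapping.

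Strep2 against WT gave no H2 call with limma, 0 of 13 in 1n cells (background 0.105%) and 0 of 14 in 4n cells (background 0.547%). At an unadjusted p under 0.05 there were 5 of 13 in 1n cells, where 1894 of all 20988 genes had such a p, and 2 of 14 in 4n cells, where 3178 of 18463 had. The lowest adjusted p was 0.266 for H2-DMa in 1n cells, at a log2 fold change of -0.35 ± 0.09 (SE), and 0.134 for H2-Ke6 in 4n cells. For H2-Ab1 the log2 fold change was -0.44 ± 0.14 (SE, adjusted p = 0.369) in 1n and -0.24 ± 0.16 (SE, adjusted p = 0.435) in 4n cells with limma. The median over the H2 genes tested was -0.35 in 1n and -0.02 in 4n cells, beside 0.01 and -0.02 over all genes.

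Summed over a class, the levels do not depend on how reads were divided among copies inside it. The 12 class II genes summed to 58.7 ± 3.79 RPM in 1n Strep1, 19.7 ± 0.525 RPM in 1n Strep2 and 24.4 ± 2.35 RPM in 1n WT (SD, n = 3 each). In 4n cells they summed to 33.3 ± 2.83 RPM in Strep1, 9.98 ± 1.31 RPM in Strep2 and 10.9 ± 0.669 RPM in WT. Without H2-Ab1 the 4n sums were 10.4 ± 0.774, 8.51 ± 1.18 and 9.27 ± 0.490 RPM in the same order, so in 4n cells most of the class II difference was H2-Ab1. In 1n cells a difference remained without H2-Ab1, at 28.6 ± 2.53 RPM in Strep1, 17.2 ± 0.518 RPM in Strep2 and 21.0 ± 1.63 RPM in WT, with Strep1 above both without overlap. H2-Ab1 made up 36.3% to 37.9% of all H2 reads in the 6 Strep1 libraries and 3.26% to 9.46% in the other 12.

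The class Ia sum, dominated by H2-K1, was 20.4 ± 2.68 RPM in 4n Strep1, 22.3 ± 1.46 RPM in 4n Strep2 and 20.4 ± 2.31 RPM in 4n WT, with overlap. In 1n cells it was 10.2 ± 0.564 RPM in Strep1, 6.69 ± 0.679 RPM in Strep2 and 7.13 ± 0.750 RPM in WT, with Strep1 above both. The sum of all 32 class I genes overlapped between the 4n groups. It was 25.4 ± 2.84 RPM in Strep1, 23.8 ± 1.50 RPM in Strep2 and 22.0 ± 2.35 RPM in WT. In 1n cells it was 19.8 ± 0.733, 13.6 ± 0.444 and 16.3 ± 1.02 RPM in the same order, with Strep1 above both. The next sums leave out H2-K1 and H2-M5, neither of which was higher in 4n Strep1 than in 4n WT. Class I without H2-K1 and H2-M5 summed to 7.79 ± 0.630 RPM in 4n Strep1, 1.91 ± 0.240 RPM in 4n Strep2 and 1.52 ± 0.204 RPM in 4n WT. In 1n cells the same genes summed to 6.23 ± 0.579 RPM in Strep1, 2.21 ± 0.295 RPM in Strep2 and 2.93 ± 0.184 RPM in WT. H2-K1 accounted for 66.9% to 69.7% of class I reads in 4n Strep1 libraries and for 90.6% to 92.3% in the other 4n libraries. In 1n cells this share overlapped, at 41.3% to 49.3% in Strep1, 41.8% to 56.2% in Strep2 and 36.3% to 44.1% in WT. The Q genes together had 3.72 ± 0.0957 RPM in 4n Strep1, 1.07 ± 0.116 RPM in 4n Strep2 and 0.811 ± 0.0856 RPM in 4n WT, and the T genes 0.405 ± 0.0537, 0.0492 ± 0.0306 and 0.0196 ± 0.0196 RPM in the same order. In 1n cells the T gene sums of Strep1 and WT overlapped, at 0.330 ± 0.142 RPM in Strep1, 0.129 ± 0.0376 RPM in Strep2 and 0.140 ± 0.132 RPM in WT.

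**Figure D3:**
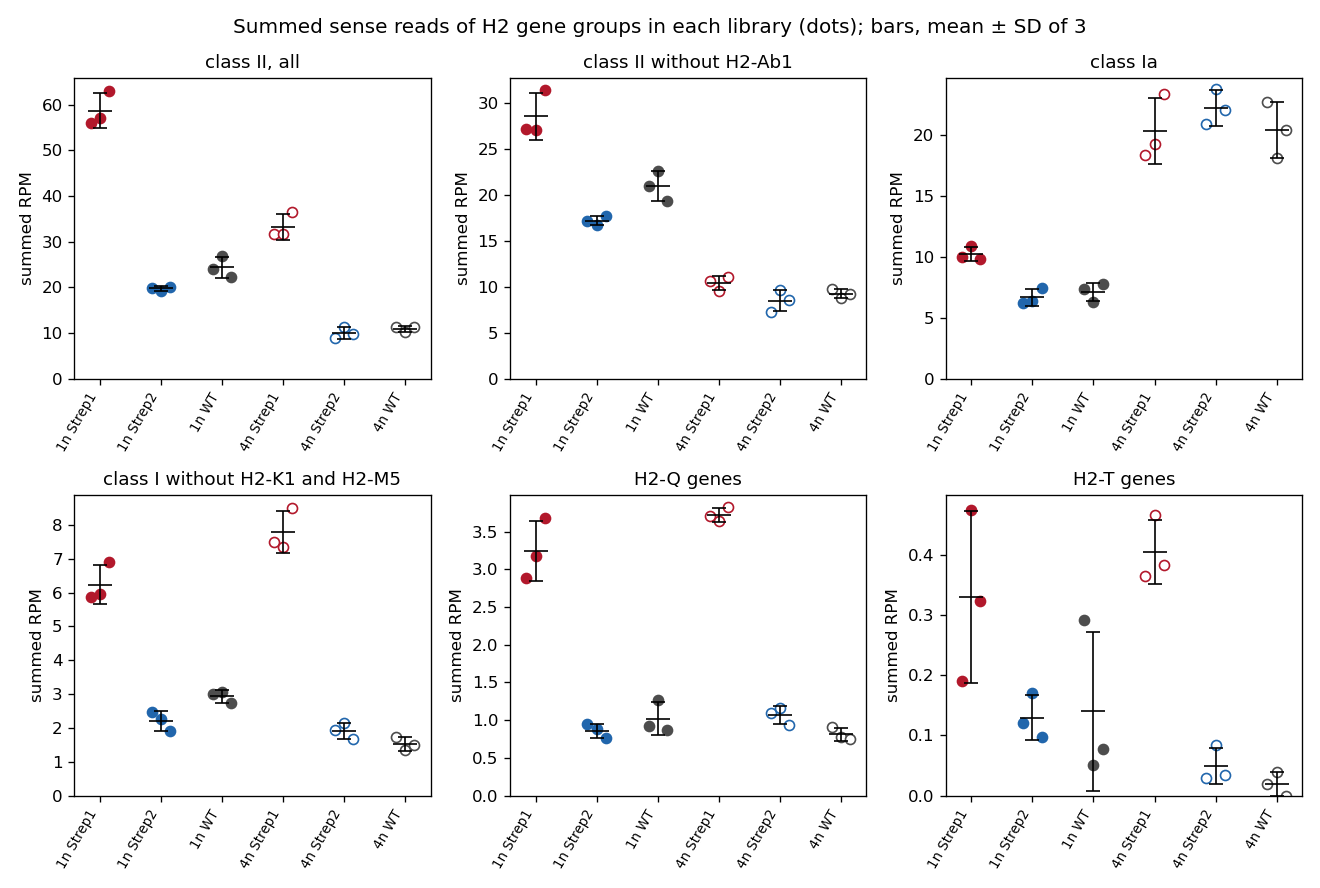
Summed sense RPM (y axis, linear from 0) of 6 H2 gene groups in each library, with dots for libraries and bars for mean ± SD of 3. The class II sum is high in Strep1, but without H2-Ab1 it is 10.4, 8.51 and 9.27 RPM in 4n Strep1, Strep2 and WT, and the class Ia sum in 4n cells overlaps between genotypes.

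The size of the Strep1 difference was then compared between 1n and 4n cells as an interaction in the fit of all 18 libraries. No H2 gene of 19 was called (background 0.258%), and 8 had an unadjusted p under 0.05, as had 1630 of all 22824 genes. Since H2-K2, H2-Q2, H2-Q4, H2-Q5, H2-Q6 and H2-Q10 passed this filter only through Strep1 libraries, the 8 cannot be weighed against that share. The log2 fold change in 1n minus that in 4n was 0.67 for H2-K1 (adjusted p = 0.105), -1.34 for H2-Q2 (adjusted p = 0.124), -0.93 for H2-Q10 (adjusted p = 0.148), -1.37 for H2-D1 (adjusted p = 0.447) and -0.59 for H2-Ab1 (adjusted p = 0.539), with limma. No WT library exceeded 0.0117 RPM of H2-Q10, so its value here depends on the pseudocount. The same test for Strep2 called 0 of 19 (background 0.0701%), with 2 at an unadjusted p under 0.05, as had 2582 of all 22824 genes.

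The H2 genes that rose in Strep1 lie among many others. Between the first and the last H2 gene, 279 other Ensembl genes of the table are annotated, of which 104 were tested in 1n and 95 in 4n cells. In 1n Strep1 against WT 7 of these were called, 5 higher and 2 lower (6.73%), and in 4n Strep1 against WT 5, all higher (5.26%), beside the 1.34% and 0.932% of all genes. Their median log2 fold change was 0.02 in 1n and 0.03 in 4n cells. Of those called, Btnl5-ps, Gm10499 and Gm11131 in 1n cells and Gm10499 in 4n cells passed the filter only through the Strep1 libraries. Gm10499 also has an H2 name in the GENCODE annotation and is counted here by its name in the deposited table. The shares called therefore cannot be weighed against those of all genes. In 4n cells the called H2 genes reached from H2-K2 at 34194050 to H2-Q10 at 35785460, and of the 58 other genes tested between those positions 2 were called. In 1n cells the called H2 genes reached from H2-Ab1 to H2-Q4, and 6 of the 55 other genes tested between them were called.

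The 3 neighbours with the largest differences in 1n cells were Btnl5-ps, Gm10499 and Gm11131. Btnl5-ps, a butyrophilin-like pseudogene, had 1.3 ± 0.120 RPM in 1n Strep1, 0.0377 ± 0.0475 RPM in 1n Strep2 and 0.0561 ± 0.0582 RPM in 1n WT (SD, n = 3 each; log2 fold change to WT 3.21, limma adjusted p = 3.60e-05). Gm10499, which the GENCODE annotation names H2-T7, had 0.369, 0.488 and 0.459 RPM in 1n Strep1 and 0.587, 0.694 and 0.71 RPM in 4n Strep1, and was listed at 0 in all 12 Strep2 and WT libraries. Gm11131 overlaps H2-Q4 on the opposite strand and had 0.724 ± 0.0392 RPM in 1n Strep1, 0.150 ± 0.0918 RPM in 1n Strep2 and 0.201 ± 0.129 RPM in 1n WT (log2 fold change to WT 1.50, limma adjusted p = 0.0438).

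In 4n cells the 3 largest against WT were Gm10499, Ddr1 and Dxo. Ddr1, a collagen receptor kinase, had 2.97 ± 0.243 RPM in 4n Strep1, 0.590 ± 0.122 RPM in 4n Strep2 and 0.448 ± 0.139 RPM in 4n WT (log2 fold change to WT 2.44, limma adjusted p = 0.000163). In 1n cells Ddr1 did not separate the lines, at 1.76 ± 0.0745 RPM in Strep1, 2.05 ± 0.519 RPM in Strep2 and 1.72 ± 0.445 RPM in WT. Dxo, an RNA decapping enzyme, had 31.0 ± 2.58 RPM in 4n Strep1, 23.7 ± 3.82 RPM in 4n Strep2 and 19.2 ± 2.03 RPM in 4n WT (log2 fold change to WT 0.60, limma adjusted p = 0.0017). Against Strep2, Atp6v1g2, a proton pump subunit, followed Gm10499 and Ddr1, at 6.82 ± 0.629 RPM in 4n Strep1 and 9.93 ± 1.34 RPM in 4n Strep2 (log2 fold change -0.50, limma adjusted p = 0.0244).

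**Figure D4:**
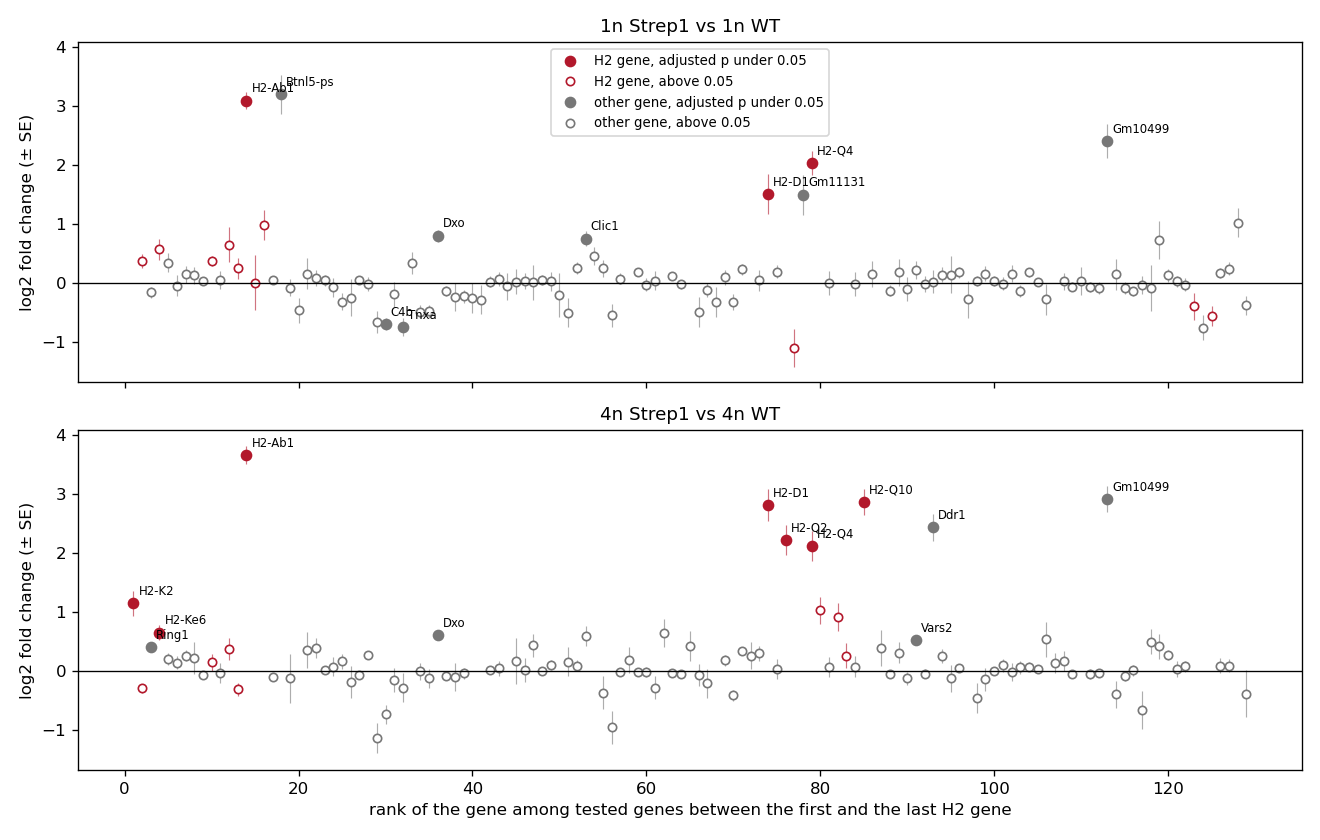
Log2 fold change of 1n Strep1 against 1n WT (top) and 4n Strep1 against 4n WT (bottom), ± SE, for H2 genes (red) and other genes (grey) between the first and the last H2 gene, by rank along the chromosome, with filled points for adjusted p under 0.05. Called genes lie among many uncalled ones, with the median of the other genes at 0.02 and 0.03, and some are direct neighbours, such as Gm11131 and H2-Q4 in 1n and Ring1 and H2-Ke6 in 4n cells.

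The authors' deposited table of their own comparisons, made from Salmon quantification per the name of the table, was read for the same genes. At an adjusted p under 0.05 the authors' deposited table called 5 of 15 listed H2 genes in 1n Strep1 against WT (2.26% of all its genes), 7 of 20 in 4n Strep1 (1.09%), 0 of 19 in 1n Strep2 (0.536%) and 0 of 11 in 4n Strep2 (2.69%), every call being higher in Strep1. For H2-Ab1 the authors' deposited table gave log2 fold changes of 2.91 in 1n and 3.54 in 4n Strep1. For H2-D1 the authors' deposited table gave 3.23 in 4n cells (adjusted p = 6.92e-18) and 1.03 in 1n cells (adjusted p = 0.0880), where it made no call. The deposited fold changes are not plain ratios of the listed signals, so their sizes are not comparable with the limma values. H2-Q5 in 4n cells, for example, is listed at 0.012, with signals of 40.2, 9.26 and 6.89 in Strep1 and 1.06, 6.41 and 4.32 in WT. For H2-K2 the authors' deposited table listed a normalized signal of 52.2, 36.0 and 59.2 in 4n Strep1 and 0 in all 4n Strep2 and WT libraries. In the RPM table the same 4n Strep2 and WT libraries had 0.120 to 0.182 RPM of H2-K2, so the sources differ on whether the transcript was seen there. They differ the other way for H2-Bl, at or near 0 RPM in 4n Strep2 and WT. Its deposited signals were 77.3, 56.8 and 31.5 in 4n Strep1, 28.3, 21.8 and 24.5 in 4n Strep2 and 35.0, 25.3 and 34.0 in 4n WT. The authors' deposited table gave it a log2 fold change of 0.024 in 4n Strep1 against WT (adjusted p = 0.742). H2-DMa and H2-K1, called in 1n Strep1 in the authors' deposited table at log2 fold changes of 0.47 and 0.50, did not pass the limma test in the RPM table. The 7 calls in 4n Strep1 against WT were not the same 7 in both sources. The authors' deposited table called H2-Q6 there (log2 fold change 1.26, adjusted p = 0.00821), which limma did not. It did not call H2-Ke6 (adjusted p = 0.157), which limma did.

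No other gene on the pathway lists was called between lines. Of the class I processing and loading genes, 0 of 8 tested in 1n and 0 of 7 in 4n cells were called in any comparison between lines. The counts were 0 of 5 and 0 of 4 for class II assembly genes, 0 of 9 and 0 of 9 for regulators of these genes, 0 of 8 and 0 of 10 for interferon receptors and response genes, and 0 of 2 and 0 of 1 for class I-like genes outside the H2 names. Over all genes tested, 0.105% to 1.37% were called in the comparisons between lines. At such shares 0 is the usual count for lists of this size, so these counts do not show a lack of change. The median log2 fold changes of Strep1 against WT in 4n cells were 0.06, 0.30, 0.14, 0.08 and 0.05 for these lists in the same order.

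B2m, the light chain of every class I molecule, had 1.69 ± 0.0612 RPM in 1n Strep1, 1.66 ± 0.0874 RPM in 1n Strep2 and 1.39 ± 0.149 RPM in 1n WT (SD, n = 3 each). In 4n cells B2m had 1.48 ± 0.425 RPM in Strep1, 1.84 ± 0.419 RPM in Strep2 and 1.37 ± 0.161 RPM in WT. Tapbp, the peptide-loading factor tapasin, had 56.8 ± 5.55 RPM in 4n Strep1, 59.3 ± 5.45 RPM in 4n Strep2 and 52.4 ± 4.54 RPM in 4n WT. Tap1 and Tap2, which carry peptides to class I molecules, had group means of at most 0.0707 and 0.0477 RPM.

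Cd74, the invariant chain that class II molecules need for assembly, varied widely in 1n cells, at 1.10 ± 1.07 RPM in Strep1, 0.489 ± 0.414 RPM in Strep2 and 0.727 ± 0.490 RPM in WT. In 4n cells, where H2-Ab1 averaged 22.8 ± 2.28 RPM in Strep1, no library exceeded 0.0487 RPM of Cd74. The mean of Ctss, the protease that removes the invariant chain, was at most 0.0865 RPM. Ciita, the class II master regulator, had group means of at most 0.0625 RPM. Nlrc5, its class I counterpart, had 3.79 ± 0.853 RPM in 1n Strep1, 3.03 ± 0.150 RPM in 1n Strep2 and 2.86 ± 0.590 RPM in 1n WT, and in 4n cells 1.05 ± 0.170 RPM in Strep1, 0.648 ± 0.113 RPM in Strep2 and 0.786 ± 0.138 RPM in WT.

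Markers of antigen-presenting cells were measured beside H2-Ab1. The 15 macrophage and dendritic cell markers summed to 180 to 201 RPM in 1n Strep1, 181 to 209 RPM in 1n Strep2 and 168 to 247 RPM in 1n WT. In 4n cells they summed to 11.7 to 20.0 RPM in Strep1, 12.8 to 16.8 RPM in Strep2 and 14.6 to 22.2 RPM in WT. Aif1 alone averaged 181 RPM of the 1n Strep1 sum. None of the 8 tested in 1n or 5 tested in 4n cells was called for Strep1 against WT. Over all genes the shares called there were 1.34% and 0.932%, so 0 is the usual count for so few markers. C1qa, Itgam and Fcgr1 were listed at 0 in all 4n Strep1 libraries, Lyz2, Itgam and Fcgr1 in all 4n Strep2 libraries, and C1qc and Fcgr1 in all 4n WT libraries. Cx3cr1, a macrophage marker, was the only marker called between the tagged lines, lower in 1n Strep1 at 0.174 ± 0.0618 RPM, against 0.726 ± 0.0944 RPM in 1n Strep2 (log2 fold change -1.61, limma adjusted p = 0.00134).

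The 12 lymphocyte and leukocyte markers summed to 5.05 to 6.83 RPM in 4n Strep1, 5.06 to 5.43 RPM in 4n Strep2 and 4.60 to 5.76 RPM in 4n WT. Only 4 of them passed the filter in 4n cells, with none called, and Cd79b was at 0 in all libraries. Between the 4n groups, 0.547% to 0.991% of all genes were called. The sums of both marker lists overlapped between lines in 4n cells, and whether the lines differed in their content of such cells was not tested. None of the 9 endothelial, peritubular and Leydig markers tested in 1n or 7 tested in 4n cells was called for Strep1 against WT. The share of all genes called there was 1.34% in 1n and 0.932% in 4n cells. The only other marker called was the Sertoli cell gene Clu, lower in 1n Strep1 at 3.60 ± 0.852 RPM, against 5.94 ± 1.07 RPM in 1n WT (log2 fold change -0.76, limma adjusted p = 0.0393).

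H2 levels also differed between the sorted populations, as did those of most genes. Of 19 H2 genes tested, 17 were called in Strep1 (6 higher and 11 lower in 1n cells), 17 in Strep2 (7 and 10) and 16 in WT (8 and 8), where 85.2%, 85.5% and 85% of 22824 genes were called. Of all genes, 41.6% were called higher and 43.5% lower in Strep1, 41.5% and 43.9% in Strep2, and 41.1% and 43.9% in WT. These shares are close to that background. In WT and Strep2 the populations also differ in library series, and the effects cannot be told apart; in Strep1 both populations are of 1 series. Without scaling, the median of all genes shifts by 0.27 in Strep1, 0.21 in Strep2 and 0.32 in WT, so the values below are relative to a trimmed mean of all genes.

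H2-M5 had the largest 1n against 4n log2 fold change of the H2 genes on the log2(RPM + 0.1) scale, at 3.77 in Strep1, 4.29 in Strep2 and 3.62 in WT (limma adjusted p of at most 1.29e-10). This order holds for that scale alone, since H2-Aa, for example, was under the limit of 3 reads in every 4n library and its ratio cannot be set against that of H2-M5. The pseudogene H2-M6-ps had 2.55, 2.52 and 2.62 in that order, though 81.1% of its 100-base stretches also lie in Gm66159. H2-DMa rose in 1n cells, with 1.85, 1.72 and 1.63, whereas its partners fell. H2-DMb1 had -1.37, -1.63 and -1.93, and H2-DMb2 -1.78, -1.91 and -2.03, all called. The 2 chains of the DM pair therefore ran in opposite directions between the populations in all 3 genotypes.

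H2-K1 was lower in 1n cells in all 3 genotypes, at -1.23 in Strep1, -1.98 in Strep2 and -1.90 in WT, and H2-Ke6 at -1.05, -1.51 and -0.96. H2-Aa and H2-Eb1 were higher in 1n cells, with 1n against 4n log2 fold changes of 2.23 and 1.45 in Strep1, 1.82 and 1.31 in Strep2 and 2.14 and 2.49 in WT. H2-Ab1 was called higher in 1n cells of Strep2 (0.52, limma adjusted p = 0.00477) and WT (0.69, limma adjusted p = 0.000458) but not of Strep1 (0.11, limma adjusted p = 0.532). H2-D1 was called lower in 1n cells of Strep1 (-1.47) and Strep2 (-0.82), and the Strep2 call was lost without a filter on low values (adjusted p = 0.0541), without scaling (adjusted p = 0.0772) and without 1n replicate 3 or 4n replicate 1 or 2 of Strep2 (adjusted p of 0.0757 to 0.192), with limma. In WT its uncalled value of -0.10 turned to 0.15 without scaling.

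**Figure D5:**
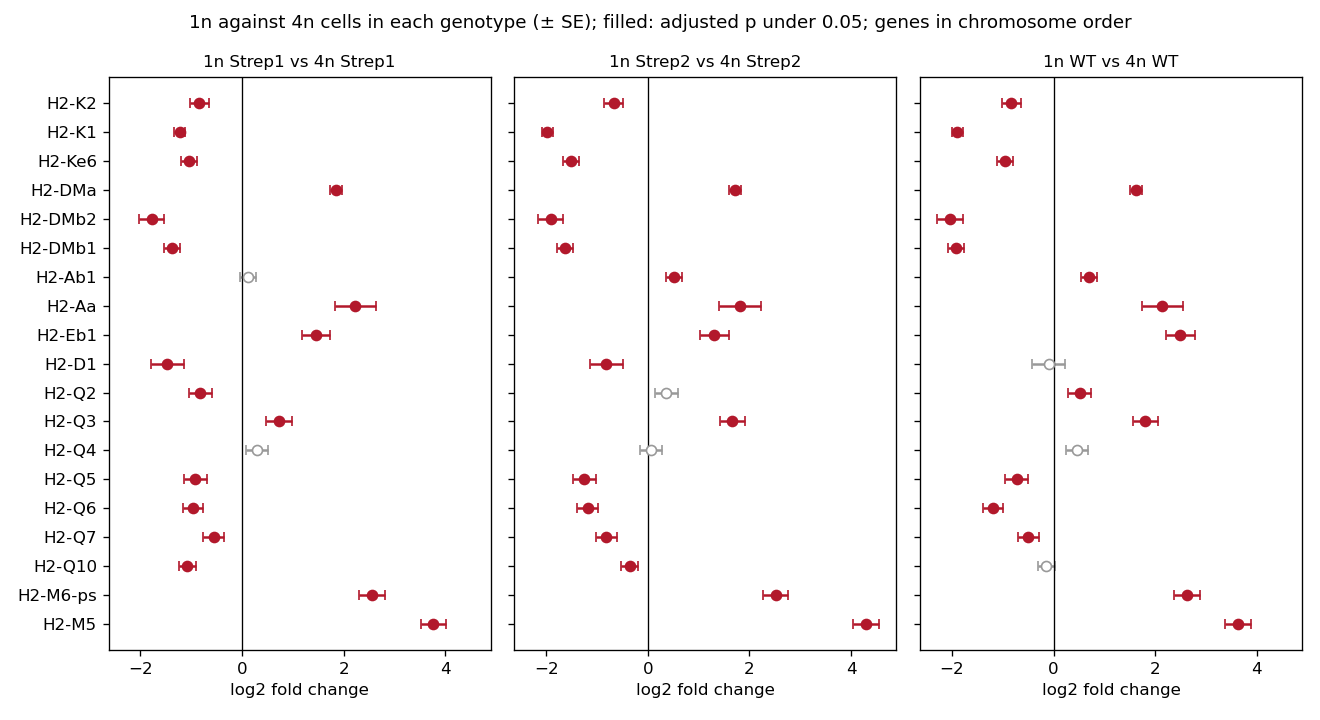
Log2 fold change of 1n against 4n cells (x axis, ± SE) for 19 H2 genes in Strep1, Strep2 and WT, in chromosome order down the page, with filled points for adjusted p under 0.05. H2-M5 lies farthest right in each panel, at 3.77, 4.29 and 3.62, and H2-DMb2 and H2-K1 lie left of 0 in all 3.

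Reads on the opposite strand were described from the deposited antisense RPM table. The member with the most was the pseudogene H2-M10.5-ps1, at 2.76 ± 0.253 RPM in 1n Strep1, 2.91 ± 0.426 RPM in 1n Strep2 and 3.14 ± 0.264 RPM in 1n WT, against 0.0904 ± 0.0851, 0.176 ± 0.00672 and 0.268 ± 0.0413 RPM in 4n cells of the same genotypes. Its sense reads were at most 0.0872 RPM. H2-Ab1 antisense reads were 0.476 ± 0.168 RPM in 1n Strep1, 0.406 ± 0.0866 RPM in 1n Strep2 and 0.430 ± 0.238 RPM in 1n WT with overlap between the lines. In 4n cells H2-Ab1 antisense reads were 0.221 ± 0.0620 RPM in Strep1, 0.0365 ± 0.0335 RPM in Strep2 and 0.0395 ± 0.0553 RPM in WT, without overlap.

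Other H2 genes had more antisense reads in all 3 1n Strep1 libraries than in any 1n Strep2 or WT library, and the 5 given here were chosen after their values were seen. How often this occurs over all genes was not counted, and the 1n Strep1 libraries are of another series than those of 1n Strep2 and WT. For H2-D1, H2-DMb2, H2-T23 and H2-T22, all 1n Strep2 and WT values were at or under the limit of 3 reads. H2-D1 had 0.218 ± 0.114 RPM in 1n Strep1, 0.0338 ± 0.0199 RPM in 1n Strep2 and 0.0354 ± 0.0237 RPM in 1n WT (SD, n = 3 each). The peptide exchange gene H2-DMb1, whose sense values overlapped, had 0.314 ± 0.0468 antisense RPM in 1n Strep1, 0.0470 ± 0.0164 in 1n Strep2 and 0.0585 ± 0.00489 in 1n WT, and H2-DMb2 had 0.260 ± 0.0695, 0.0254 ± 0.00885 and 0.0125 ± 0.0117 RPM in the same order. H2-T23 had 0.295 ± 0.0895 antisense RPM in 1n Strep1, 0.0112 ± 0.0114 in 1n Strep2 and 0.0187 ± 0.0162 in 1n WT, and H2-T22 had 0.258 ± 0.140, 0.0126 ± 0.0219 and 0.00577 ± 0.010 RPM in the same order. All 5 also lay above the other lines in 4n cells, where H2-DMb1 had 0.359 ± 0.0584 antisense RPM in Strep1, 0.0874 ± 0.0305 in Strep2 and 0.115 ± 0.0466 in WT. H2-T23 had 0.0510, 0.0366 and 0.0804 antisense RPM in 4n Strep1, of which only the last exceeded the limit of 3 reads. The antisense values were not tested.

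The 26 H2 genes outside every fit had no single value above 0.303 RPM, and 16 of them were at or under 3 reads in all 18 libraries, a limit of 0.0475 to 0.0909 RPM depending on the library. H2-M2, H2-M9 and H2-Ob were listed at 0 in every library. This group holds most M10 genes, which are known from the vomeronasal organ, H2-M3, which presents formylated peptides, and H2-T22 and H2-T10, ligands of gamma delta T cell receptors. None of the 26 was tested, and H2-Q1 and H2-Bl, whose values are given above, are among them.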

How the data were processed

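Long RNA of sorted 1n and 4n cells was sequenced from ribosomal RNA-depleted, stranded libraries, per the labels' protocols. The authors deposited sense and antisense RPM tables per gene (reads scaled to library size); how multiply mapping reads were divided and which total was used are not given in the sources used here. The submitters' processing notes name cutadapt, Bowtie, STAR, featureCounts, Salmon 1.3.0, DESeq, DESeq2 and the build GRCm39, with no roles. The authors also deposited tables of normalized signal per library with a log2 fold change and p-values for each line against WT, which were read and not recomputed.

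The RPM values hold fractional reads, so no count test was run. Libraries were brought to a common scale with a trimmed mean of log ratios, leaving out 30% of ratios and 5% of levels at each end, and log2(RPM + 0.1) was tested with limma 3.58.1 (R 4.3.3) with a variance trend, over genes of at least 0.3 RPM in 3 libraries, with Benjamini-Hochberg adjustment over all genes tested. Comparisons between lines used the 9 libraries of a population, and those between populations and the interactions used all 18. The procedure was tested on simulated data. The H2 genes, the pathway and marker lists and the comparisons were chosen with earlier results of these data known. Values per library were printed for H2-Ab1, H2-D1, H2-K2, every H2 gene called between lines and the 8 of highest mean RPM. Of the other genes, 8 pathway genes, list genes called between lines and the 3 neighbours with the largest called differences per comparison were named. In the small RNA tables, 4 columns that match no sample were not used. Alternatives in pseudocount, filter, scaling, variance trend, replicate block, libraries fitted and libraries left out are given in the closing section.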

Additional observations from a re-analysis of the deposited data

Results flagged for a closer look

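In the 5 small RNA libraries of immunopurified Strep1 MIWI, which enter no comparison above and have no control samples, sense reads over 4 H2 genes exceeded the limit of 3 reads in every library. H2-K1 averaged 0.566 RPM (0.218 to 0.880). H2-D1 averaged 0.49 RPM (0.176 to 0.813). H2-DMa averaged 0.436 RPM (0.225 to 0.748). H2-Ab1 averaged 0.415 RPM (0.193 to 0.701).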

How the results depend on the processing

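Of 208 counts of H2 calls under alternatives, 189 stayed within 1.5 times the reported count, and of 2043 fold changes of single genes 1927 kept their direction and their side of the threshold, 64 lost and 27 gained a call, and 25 changed sign. The causes were not tested unless the setting itself removes genes or libraries. Without a filter on low values, 6 H2 genes were called in 1n Strep1 against WT, 11 in 4n Strep1 against WT, 9 in 1n Strep1 against Strep2 and 1 in the Strep1 interaction. With a filter of 1 RPM, which tests fewer genes, 4 were called in 4n Strep1 against WT, 3 in 4n Strep1 against Strep2, and 7, 8 and 8 between populations in Strep1, Strep2 and WT. The Strep1 interaction gave 3 calls with a pseudocount of 1 and 1 without a variance trend. Leaving out 1 library gave 2 to 6 calls in 4n Strep1 against WT, 2 to 7 in 4n Strep1 against Strep2 and 0 to 2 in the Strep1 interaction; with the genes tested held, an alternative added after the values were seen, the first was 5 to 6 and the second 6 to 7.

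The fold changes that changed sign were all uncalled. For 4n Strep2 against WT, H2-K1 was 0.015 without a filter, 0.12 without scaling and -0.038 to 0.048 with 1 library left out (0.011 to 0.048 among the sign changes with the genes tested held). In the same comparison H2-DMb1 was 0.027 without scaling, and with 1 library left out H2-Q2 was -0.29 to 0.024 and H2-Q4 -0.051 to 0.34. With 1 library left out, H2-DMb2 in 1n Strep2 against WT was -0.36 to 0.083 (0.0082 and 0.084 with the genes tested held), H2-M5 in 1n Strep1 against Strep2 -0.27 to 0.019, H2-Q4 in 1n against 4n Strep2 -0.051 to 0.23, and H2-K1 in the Strep2 interaction -0.17 to 0.028. H2-D1 in 1n against 4n WT was 0.15 without scaling and -0.46 to 0.16 with 1 library left out.

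Replicate numbers showed no consistent pairing of the libraries: correlations of same-numbered deviations ran from -0.45 to 0.459, and no comparison had all 3 above 0.1. Such correlations cannot show that same-numbered libraries are unrelated. With a replicate block, H2-K2 (adjusted p = 0.0819) and H2-Ke6 (adjusted p = 0.0678) lost their limma calls in 4n Strep1 against WT, leaving 5. Between populations, calls were also lost in some alternatives by H2-Q2 in WT and Strep1 and by H2-Q10 and H2-D1 in Strep2. At this depth, a value under 0.0909 RPM can rest on 3 reads or fewer.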
